A study of Mus musculus with 2 samples.

Results

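Cluster 10 of the deposited single-cell table was the group of proliferating thymocytes with the highest level of Top2a, which encodes topoisomerase II alpha, the enzyme that untangles DNA when chromosomes condense and separate. Its members were all cells to which the authors' clustering gave the number 10 at a resolution of 1.5, and there were 463 of them among 13683 deposited cells. The cells came from whole thymus of Cdc42f/f mice, here called WT, and of Cdc42f/f CD4Cre littermates, here called KO, all 6 weeks old, with 5 mice of a genotype pooled into 1 library. Both genotypes carried the loxP-flanked Cdc42 alleles, and the KO mice also carried a Cre transgene driven by the CD4 promoter, which deletes in cells that reach the CD4+CD8+ double-positive (DP) stage. With 1 library per condition no difference between WT and KO has a replicate check, and no test between them was possible. Each value below rests on counts of unique molecular identifiers (UMIs), which count captured transcript molecules, and is given as CPM, the count of a gene scaled to a fixed total of all UMIs of the cells concerned, separately for the WT-labelled and the KO-labelled library. Intervals are exact 95% intervals and cover counting error only.

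Thymocytes divide in bursts. Cells that have assembled a working TCR beta chain pass beta-selection at the CD4-CD8- double-negative (DN) stage, proliferate while they start to express CD8 and CD4, and then leave the cycle as small DP cells that rearrange the TCR alpha chain. In a dividing cell, licensing factors and the replication machinery are transcribed towards and during early S phase, the genes of the replication-dependent histones are transcribed while DNA is copied, and cyclin B, kinetochore and spindle genes follow towards mitosis. Transcripts of replication-dependent histones mostly end in a stem-loop without a poly(A) tail, and many of these genes are near-identical copies, so that the count of each single histone gene is uncertain.

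Cluster 10 held 232 cells of the WT-labelled library and 231 cells of the KO-labelled library. The cells were rich in RNA, with a median of 13154 UMIs and 3660 genes per cell against 3320 UMIs in all cells, a ratio of 3.96. Among the other proliferating clusters, the median was 15147 UMIs in cluster 11 (365 cells), 20857.5 in cluster 12 (324 cells) and 6280 in cluster 13 (271 cells). A median of 2.56% of the UMIs of cluster 10 was mitochondrial, 1 cell exceeded 10%, and 23 cells (4.97%) were among the 6% of each library with the highest doublet score. Its membership did not depend on the resolution of the authors' clustering, since the same 463 cells formed 1 cluster at the resolutions 1.8 and 2. The 2 libraries shared 17 cell barcodes, 1 of them with a cell of cluster 10. The group was not free of other cells. The median cell held 233 UMIs of 12 genes of the TCR complex, but 3 cells, all of the KO-labelled library, held under 10. Of these, 2 carried Ebf1, Vpreb3 and Cd79a, genes of developing B cells (71 and 29 UMIs of Ebf1), and 1 carried Irf8 and Tyrobp (70 and 32 UMIs), genes of dendritic and other myeloid cells. The genes and lists that drew most on these 3 cells are also given without them, which is an alternative chosen after the data were seen.

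By CPM, the markers placed the cluster at the top of all 19 clusters for each of its 3 genes. Every one of the 463 cells had UMIs of Top2a, with a median of 42.5 per cell (4 to 123) in the WT-labelled library and of 46 (1 to 158) in the KO-labelled library. Its level was 3324 CPM in WT and 3325 in KO, and the next clusters were cluster 18 at 1952 CPM and cluster 12 at 1554. Within the proliferating clusters, Top2a was 6.95 times as high as in cluster 11, 2.14 times as high as in cluster 12 and 2.84 times as high as in cluster 13. H1f5, which encodes a linker histone of dividing cells, stood at 6703 CPM in WT and 5535 in KO, close above cluster 12 (5603 and 4994), and far above cluster 11 (354 and 217) and cluster 13 (153 and 212). In UMIs per cell, H1f5 was higher in the deeper cells of cluster 12. The medians were 114 in WT and 116 in KO there, against 82 and 78 in cluster 10. Hmgb2, a chromatin protein that bends DNA, reached 9125 and 9118 CPM, 2.06 and 2.12 times the levels of clusters 11 and 12, and cluster 13 came next with both libraries together (5488 CPM, 5126 in WT and 5812 in KO), while in WT alone cluster 17 with its 26 cells came next (5524 CPM). By CPM, cluster 10 ranked first for each marker in both libraries. The label names the cluster by its level of Top2a in these same counts, so this rank is no independent support for the label. Since the clusters were formed from the same expression values, these and all other differences between clusters are descriptions and were not tested.

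The 10 genes with the largest ratio to all other cells were H3c3 (69.3 times the mean level per cell), H2ac10, Depdc1b, H2ac4, H3c2, Nusap1, Mxd3, Kif18b, Esco2 and Ttk (41.6 times). Of these, 4 encode core histones. Nusap1 and Kif18b bind spindle microtubules, Ttk is the Mps1 kinase of the spindle checkpoint, and Esco2 acetylates cohesin while sister chromatids form. Depdc1b and Mxd3, a partner of Max, completed the list. Genes of S phase and of mitosis thus led the same cluster.

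To show the regulatory sequence in front of these genes, the 250 bases before the transcription start are printed for the 3 markers, for 3 leading or abundant core histone genes and for Ccnb2, which encodes cyclin B2. They are from RefSeq, build GRCm38.p6, 5′ to 3′ on the strand of the gene, and the capitals mark CCAAT or its reverse complement ATTGG, the letters of the CCAAT box that the trimeric factor NF-Y recognises. The windows are chr11:99024190-99024439 (minus strand) for Top2a, chr13:21780626-21780875 (minus) for H1f5, chr8:57511593-57511842 (plus) for Hmgb2, chr13:23745522-23745771 (minus) for H3c3, chr13:23750838-23751087 (plus) for H2ac4, chr13:23581318-23581567 (plus) for H4c4 and chr9:70421555-70421804 (minus) for Ccnb2.
Top2a: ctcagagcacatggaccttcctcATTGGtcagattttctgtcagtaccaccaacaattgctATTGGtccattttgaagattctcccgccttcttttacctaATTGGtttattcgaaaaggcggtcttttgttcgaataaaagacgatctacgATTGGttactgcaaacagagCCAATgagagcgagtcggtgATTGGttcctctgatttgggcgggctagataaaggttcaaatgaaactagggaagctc
H1f5: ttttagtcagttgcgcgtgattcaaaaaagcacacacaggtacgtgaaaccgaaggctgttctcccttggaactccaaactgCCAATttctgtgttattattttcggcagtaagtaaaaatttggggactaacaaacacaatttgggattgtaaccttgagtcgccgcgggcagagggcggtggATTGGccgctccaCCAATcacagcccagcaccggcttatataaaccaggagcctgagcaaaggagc
Hmgb2: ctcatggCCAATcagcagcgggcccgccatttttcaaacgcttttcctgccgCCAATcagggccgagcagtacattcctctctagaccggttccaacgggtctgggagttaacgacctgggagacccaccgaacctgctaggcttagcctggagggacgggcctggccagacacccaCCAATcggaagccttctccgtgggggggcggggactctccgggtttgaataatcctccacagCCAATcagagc
H3c3: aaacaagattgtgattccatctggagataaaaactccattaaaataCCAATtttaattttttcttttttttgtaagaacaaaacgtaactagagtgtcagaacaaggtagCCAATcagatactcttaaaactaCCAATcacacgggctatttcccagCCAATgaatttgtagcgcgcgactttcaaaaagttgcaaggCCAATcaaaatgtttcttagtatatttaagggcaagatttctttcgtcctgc
H2ac4: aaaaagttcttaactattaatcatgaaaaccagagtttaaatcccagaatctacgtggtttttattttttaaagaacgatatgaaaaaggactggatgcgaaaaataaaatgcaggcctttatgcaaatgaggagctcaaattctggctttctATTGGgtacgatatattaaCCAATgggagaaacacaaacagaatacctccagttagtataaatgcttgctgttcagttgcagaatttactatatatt
H4c4: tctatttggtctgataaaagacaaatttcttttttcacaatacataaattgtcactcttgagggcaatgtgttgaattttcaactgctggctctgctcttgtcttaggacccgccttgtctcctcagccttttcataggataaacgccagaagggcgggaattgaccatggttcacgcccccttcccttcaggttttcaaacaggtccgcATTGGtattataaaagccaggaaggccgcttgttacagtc
Ccnb2: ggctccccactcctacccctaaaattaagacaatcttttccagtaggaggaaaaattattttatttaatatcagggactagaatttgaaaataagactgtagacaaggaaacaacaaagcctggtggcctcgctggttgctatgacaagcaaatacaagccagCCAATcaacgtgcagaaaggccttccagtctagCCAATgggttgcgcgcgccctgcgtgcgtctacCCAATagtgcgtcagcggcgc

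The letters stood 6 times before Top2a, 5 times before H3c3, 4 times before Hmgb2, 3 times each before H1f5 and Ccnb2, 2 times before H2ac4 and 1 time before H4c4. Over the 27025 genes with a start in the table, chromosome 18 left out, 34.5% held CCAAT or ATTGG at least 1 time in this window. The share was 83.3% of the replication-dependent histones (40 of 48 with a window), 82.6% of the mitotic regulators (19 of 23), 64.0% of the spindle and cytokinesis genes (16 of 25) and 62.5% of the kinetochore genes (15 of 24). It was 57.1% of the licensing genes (8 of 14) and 15.4% of the DP genes (2 of 13), and 14 of 28 replication fork genes held it. Other letters differed in frequency between the lists. TATAAA or its complement TTTATA stood before 45.8% of the histone genes (22 of 48) and before none of the 23 mitotic regulators, 1 of 24 kinetochore and 1 of 25 spindle genes, against 13% of all genes. ATTTGCAT or ATGCAAAT, the octamer bound by Oct factors, stood before 20.8% of the histone genes (10 of 48), of which 5 encode H2A and 5 H2B, against 1.61% of all genes. TTTGAA or TTCAAA, the letters of the cell cycle homology region, stood before 41.7% of the histone genes, 34.8% of the mitotic regulators, 5 of 24 kinetochore and 10 of 25 spindle genes, against 16.3% of all genes. A match describes these letters only and shows no binding.

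Replication-dependent histones set cluster 10 apart from clusters 11 and 13. Of 60 measured histone genes (at least 20 UMIs in clusters 10 to 13), 58 were at least 2-fold higher than in cluster 11 and none was 2-fold lower, with a median log2 ratio of 3.78. Over all 12365 genes measured in this way, 8.04% were 2-fold higher and 11.9% were 2-fold lower than in cluster 11, and the median log2 ratio was 0.03. Against cluster 12, 25 of the 60 were 2-fold higher with a median of 0.89, where 9.58% of all genes were 2-fold higher and 9.58% lower (median 0.14). Against cluster 13, 54 were 2-fold higher with a median of 3.26, where 8.63% of all genes were 2-fold higher and 14.7% lower (median -0.20). All histone classes shared in this. Summed over their genes, linker histone H1 was 18.3, 1.36 and 16 times the level in clusters 11, 12 and 13, H2A 23.8, 1.74 and 16.7 times, H2B 10.7, 2.04 and 5.01 times, H3 20.3, 2.11 and 14.9 times, and H4 17.6, 1.97 and 11.7 times. Of the 62 histone genes of the list, 54 had a RefSeq position, 44 of them on chromosome 13, 9 on chromosome 3 and 1 on chromosome 6.

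Single histone genes followed their class. H3c3 stood at 1383 CPM in WT and 1087 in KO, against 48.6 and 28.1 in cluster 11, 512 and 403 in cluster 12, and 45.6 and 59.4 in cluster 13. H4c4 stood at 4813 and 5080 CPM, against 226 and 193 in cluster 11 and 2384 and 2595 in cluster 12. H2ac4 was equal in both libraries, at 1040 and 1041 CPM, and 35.5 times its level in cluster 11. The exception was H2bc4, an H2B gene with 49.0 and 57.7 CPM in cluster 10. It was higher in cluster 11 (85.0 and 73.4 CPM) and highest in cluster 13 (297 and 227 CPM), where it was 4.85 times the level of cluster 10.

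**Figure D1:**
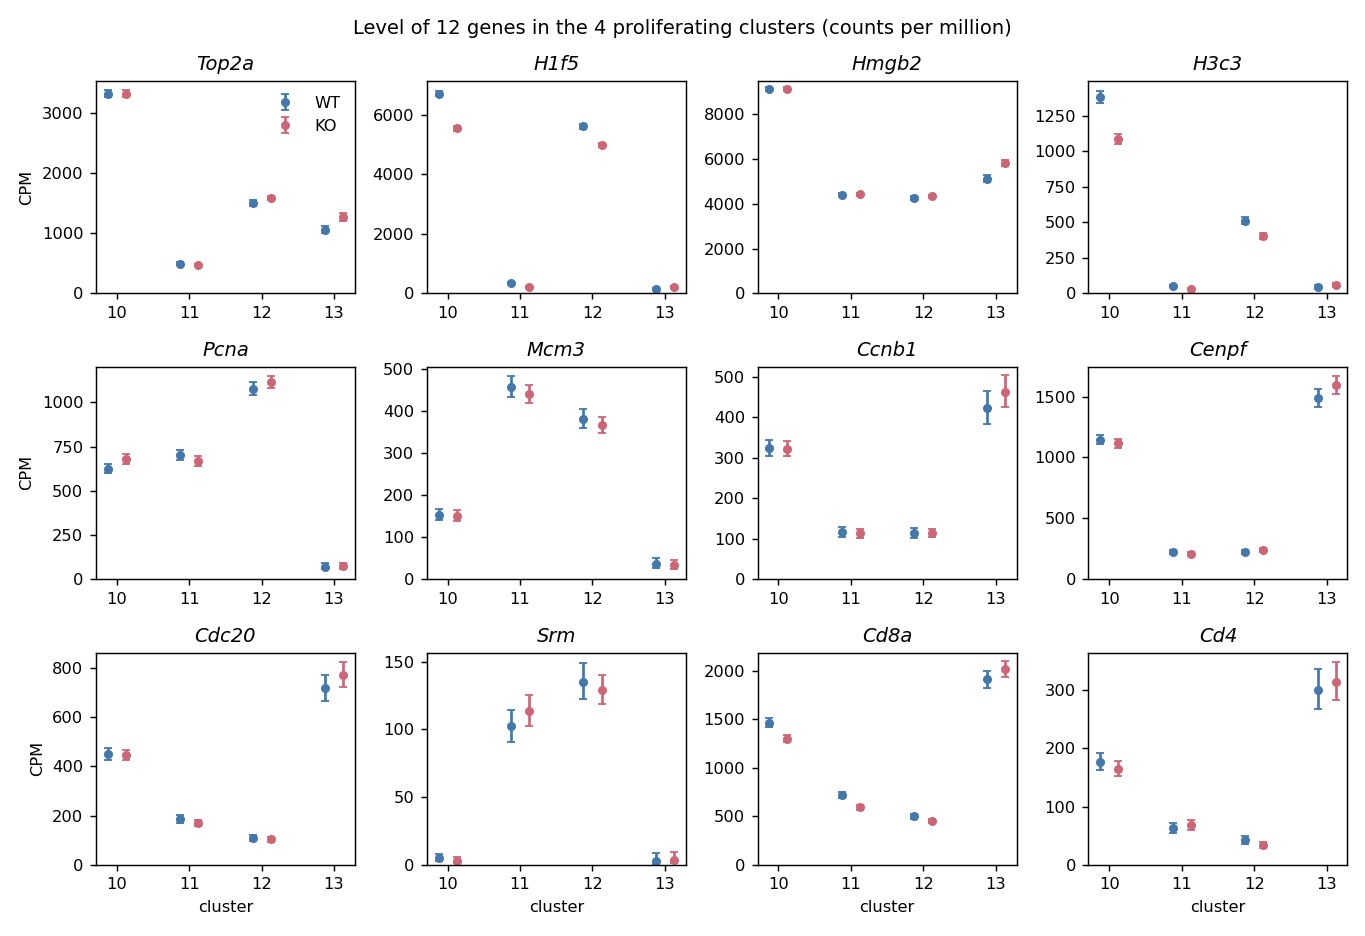
Level of 12 genes (CPM, vertical axis) in clusters 10 to 13 for the WT-labelled (blue) and KO-labelled (red) library, with exact 95% Poisson intervals for counting error. Top2a, H1f5, Hmgb2 and H3c3 are highest in cluster 10, Pcna in cluster 12 and Mcm3 in cluster 11, while Ccnb1, Cenpf, Cdc20, Cd8a and Cd4 lie below cluster 13 and above clusters 11 and 12.

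Genes that prepare and carry out DNA replication were below their level in clusters 11 and 12 and above that in cluster 13. Of 16 licensing genes, which load the replicative helicase, 7 were 2-fold lower than in cluster 11 and 7 were 2-fold lower than in cluster 12, while 12 were 2-fold higher than in cluster 13 (median log2 ratios -0.80, -0.92 and 1.95). Mcm3, a helicase subunit, had 153 CPM in WT and 150 in KO, against 456 and 439 in cluster 11, 380 and 366 in cluster 12 and 36.7 and 32.8 in cluster 13. Cdc6, a helicase loader, was 4.12 times as high in cluster 11 and 3.54 times as high in cluster 12 as in cluster 10. The 36 genes of the replication fork lay closer to these clusters, with medians of -0.21, -0.56 and 1.97, and 29 of them were 2-fold higher than in cluster 13. Pcna, the sliding clamp, was 625 and 679 CPM in cluster 10, 702 and 668 in cluster 11, 1077 and 1115 in cluster 12, and 70.3 and 72.7 in cluster 13.

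Nucleotide synthesis split within cluster 10. Of 21 genes, 11 were 2-fold lower than in cluster 11 and 12 were 2-fold lower than in cluster 12, and 16 were 2-fold higher than in cluster 13. Rrm2, the small subunit of ribonucleotide reductase, went the other way, with 884 CPM in WT and 818 in KO against 395 and 332 in cluster 11 and 659 and 674 in cluster 12. Tyms, thymidylate synthase, was 2.51 times its level in cluster 11 and 0.954 times that in cluster 12. The largest gap was that of Ung, the uracil DNA glycosylase that repairs newly copied DNA. Cluster 10 held 2 UMIs of it, none in WT and 2 in KO, where cluster 11 had 124 and 134 CPM and cluster 12 had 44.2 and 53.7 CPM. Slbp, which binds the stem-loop of histone transcripts, was at 438 and 430 CPM, 0.997 times its level in cluster 11 and 13.9 times that in cluster 13. The late S phase genes E2f7, a repressor of E2F targets, and Esco2 were 38.0 and 38.3 CPM and 437 and 374 CPM, and Esco2 was 12.8, 1.70 and 36.7 times its level in clusters 11, 12 and 13.

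Mitotic genes were higher than in clusters 11 and 12. Of 32 mitotic regulators, 26 were 2-fold higher than in cluster 11, 24 were 2-fold higher than in cluster 12 and 15 were 2-fold higher than in cluster 13 (medians 2.01, 1.23 and 0.87), and Mybl2, the B-Myb transcription factor, was the 1 gene 2-fold lower than in cluster 12. Of 28 spindle and cytokinesis genes, 27, 25 and 7 were 2-fold higher (medians 2.33, 1.38 and 0.71). Of 28 kinetochore genes, 19, 10 and 15 were 2-fold higher (medians 1.31, 0.80 and 1.08). Of 24 genes of topoisomerase, condensin and cohesin, 13, 7 and 10 were 2-fold higher (medians 1.41, 0.75 and 0.88). None of the genes in these last 3 lists was 2-fold lower in any of the 3 comparisons.

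The order against cluster 13 depended on the gene. Mki67, which coats mitotic chromosomes, was highest in cluster 10, at 1859 CPM in WT and 1854 in KO, against 379 and 437 in cluster 11, 780 and 872 in cluster 12 and 1082 and 1168 in cluster 13. Nusap1 likewise led in cluster 10, with 1112 and 1107 CPM against 403 and 502 in cluster 13. Ttk (85.3 against 23.9 CPM in both libraries together), Kif18b (66.3 against 43.0) and Depdc1b (45.6 against 26.7) were also higher than in cluster 13, whereas Ccnb1, Cdc20, Cenpf and Cenpa were lower. Ccnb1, cyclin B1, was 325 and 322 CPM in cluster 10 and 424 and 464 in cluster 13, and 2.82 times its level in cluster 11. Cdc20, the activator of the anaphase-promoting complex, was 449 and 446 CPM against 717 and 772 in cluster 13. Cenpf, a kinetochore protein, was 1145 and 1116 CPM against 1488 and 1596. Cenpa, the centromeric H3 variant, was 1.86 times as high in cluster 13 as in cluster 10. Tuba1c, an alpha-tubulin gene, had the largest log2 ratio to cluster 12 (3.00) and was 307 and 316 CPM.

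Genes that restrain the cycle were also present. Of 14 such genes, 7 were 2-fold higher than in cluster 11 and 9 were 2-fold higher than in cluster 12 (medians 1.08 and 1.26), and the median against cluster 13 was -0.34. Cdkn2d, which encodes the Cdk4 inhibitor p19Ink4d, was 633 CPM in WT and 629 in KO, against 57.4 and 44.5 in cluster 11, 138 and 155 in cluster 12, and 299 and 393 in cluster 13. Cdkn3, a phosphatase that acts on Cdk, was 6.44 times its level in cluster 12.

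**Figure D2:**
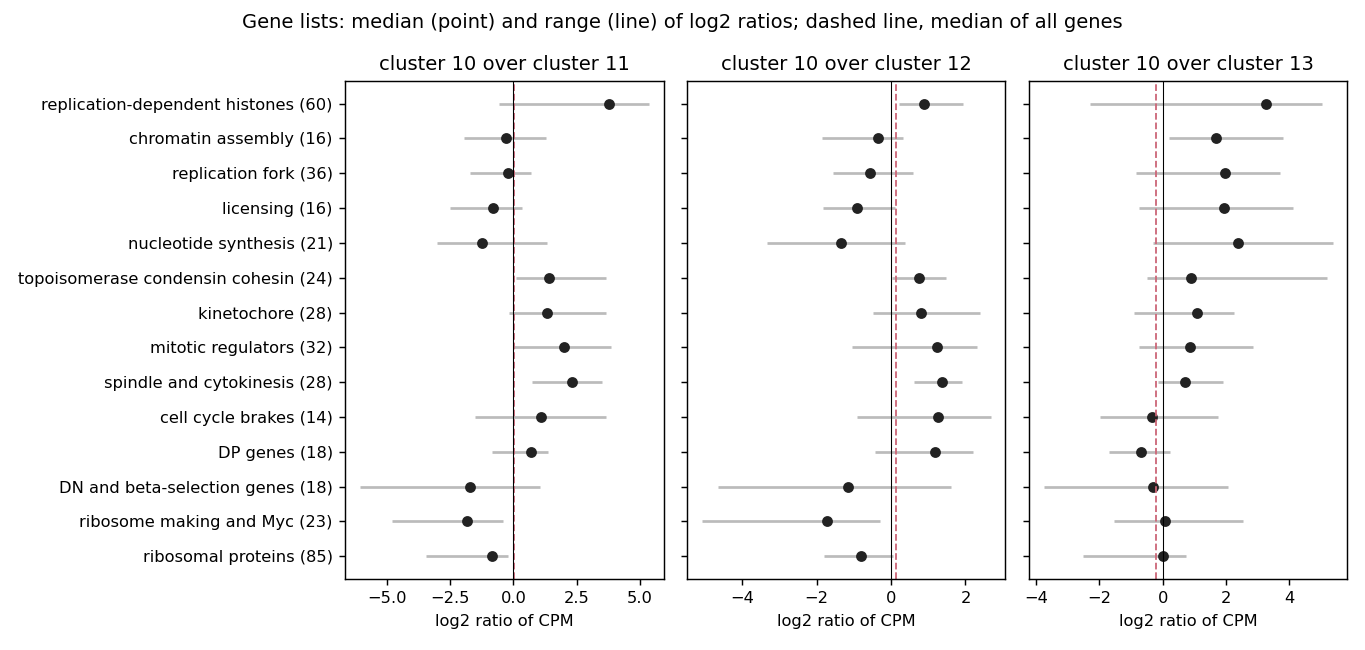
Median (point) and range (line) of the log2 ratio of cluster 10 over clusters 11, 12 and 13 for 14 gene lists, with the number of genes measured in brackets and the median of all genes as a dashed line. The medians of the histone and mitotic lists lie to the right of 0 in all panels, those of the licensing and nucleotide lists lie to the left against clusters 11 and 12 and to the right against cluster 13, and that of ribosome-making genes lies clearly to the left against clusters 11 and 12 only.

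Genes of cell growth were low. Of 23 genes of ribosome making and Myc, 20 were 2-fold lower than in cluster 11 and 20 were 2-fold lower than in cluster 12, with medians of -1.84 and -1.71, whereas the median against cluster 13 was 0.08 with 1 gene 2-fold higher and 2 lower. Srm, spermidine synthase, stood at 4.71 CPM in WT and 3.01 in KO, against 102 and 113 in cluster 11, 135 and 129 in cluster 12, and 2.97 and 3.55 in cluster 13. Myc was 7.85 and 15.9 CPM, against 90.6 and 108 in cluster 11. Ribosomal protein genes were lower by a smaller measure, with medians of -0.83 and -0.81 over 85 genes, 19 and 14 of them 2-fold lower, and a median of 0.03 against cluster 13. Both libraries gave the same picture, and cluster 10 shared its low growth genes with cluster 13 and its histones with cluster 12.

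By the genes of thymocyte stages, cluster 10 lay between clusters 11 and 12 on one side and cluster 13 on the other. Of 18 DP genes, 2 were 2-fold higher than in cluster 11, 10 were 2-fold higher than in cluster 12, and 3 were 2-fold lower than in cluster 13 (medians 0.69, 1.18 and -0.70). The shares over all genes were 8.04%, 9.58% and 14.7% in the same order. The DP counts against clusters 11 and 13 were thus near the share of all genes. Cd8a was 1467 CPM in WT and 1301 in KO, against 716 and 595 in cluster 11, 498 and 447 in cluster 12, and 1912 and 2020 in cluster 13. Cd4 was 176 and 165 CPM, against 62.6 and 67.8, 42.1 and 33.8, and 300 and 314 CPM in the same order. Rag1, the recombinase of the receptor genes, was 461 and 458 CPM, above cluster 12 (139 and 139) and below cluster 13, where it was 3.01 times as high. The 12 genes of the TCR complex had medians of 0.60, 0.62 and -0.40.

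Markers of DN and of gamma-delta cells were lower than in clusters 11 and 12. Of 18 DN and beta-selection genes, 12 were 2-fold lower than in cluster 11 and 9 were 2-fold lower than in cluster 12, and 1 and 2 were 2-fold higher. Ptcra, the pre-TCR alpha chain, was 47.4 and 47.0 CPM, against 79.1 and 93.1 in cluster 11 and 84.3 and 99.7 in cluster 12. Trgc1, a constant gene of the gamma chain, was 0.314 and 3.55 CPM, against 129 and 143 in cluster 11 and 36.4 and 74.4 in cluster 12. Cd74, the invariant chain of antigen-presenting cells, was 1.26 and 0.547 CPM in cluster 10, against 248 CPM in WT and 1.38 in KO in cluster 12, so that its place among the genes lowest against cluster 12 rests on the WT-labelled library. The genes lowest against cluster 13 were hemoglobin and immunoglobulin genes, Cox6a2 and Tyrobp, and cluster 10 held 6 UMIs of the red cell list in all (4 in WT and 2 in KO).

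Read cell by cell, most of cluster 10 held transcripts of both coreceptors. UMIs of Cd4 together with Cd8a or Cd8b1 were found in 380 of 463 cells (82.1%, exact interval 78.3 to 85.5%), 188 of 232 in WT and 192 of 231 in KO. A further 81 cells had Cd8 UMIs alone, 1 cell had Cd4 alone and 1 cell had neither. Both coreceptors were found in 51.5% of the cells of cluster 11, 40.7% of cluster 12 and 81.5% of cluster 13, at the depths given above. In cluster 15, which consists of cells other than thymocytes, 13.3% of the cells had both. Its median depth was 3415.5 UMIs against 13154 in cluster 10, and it was not thinned to 5000 UMIs. It therefore gives no background for the shares of cluster 10. With every cell thinned to 5000 UMIs, the shares were 53.3% of 452 cells in cluster 10, 32.0% of 353 in cluster 11, 18.7% of 315 in cluster 12 and 78.3% of 175 in cluster 13. Cells below that depth were left out, namely 11 in cluster 10 and 96 in cluster 13. At equal depth, cluster 10 thus lay between cluster 13 and the others.

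The share of a cell's UMIs that came from histone, S phase and mitotic genes showed how the cells varied. In cluster 10, histone genes made up a median of 3.40% of the UMIs of a cell (5th to 95th percentile 1.88 to 5.62%), the 3 mitotic lists together 3.81% (2.50 to 5.07%) and the 3 S phase lists, which hold licensing, fork and nucleotide genes, 0.962% (0.382 to 1.67%). The same medians were 0.164, 0.965 and 1.21% in cluster 11, 2.14, 1.68 and 1.56% in cluster 12, and 0.245, 1.45 and 0.216% in cluster 13. Cluster 10 had the highest median of these 4 clusters for histone and for mitotic genes, and cluster 12 came second for both. The mitotic share was widely spread in cluster 13 (5th to 95th percentile 0.230 to 4.84%). As a share of all UMIs summed over cells, mitotic genes took 2.46% in cluster 13 and 1.75% in cluster 12, so cluster 13 came second by that measure. The medians of cluster 10 were 3.3, 3.8 and 0.9% when every cell was thinned to 1000 UMIs. Over the 463 cells, the S phase share ran against the mitotic share (Spearman's rho -0.61, WT -0.57 and KO -0.66), and the histone share ran weakly with the S phase share (0.32) and hardly with the mitotic share (-0.11). These correlations describe cells of the same 2 libraries and share each cell's total as denominator. The histone share was also lower in cells with more UMIs (-0.43).

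**Figure D3:**
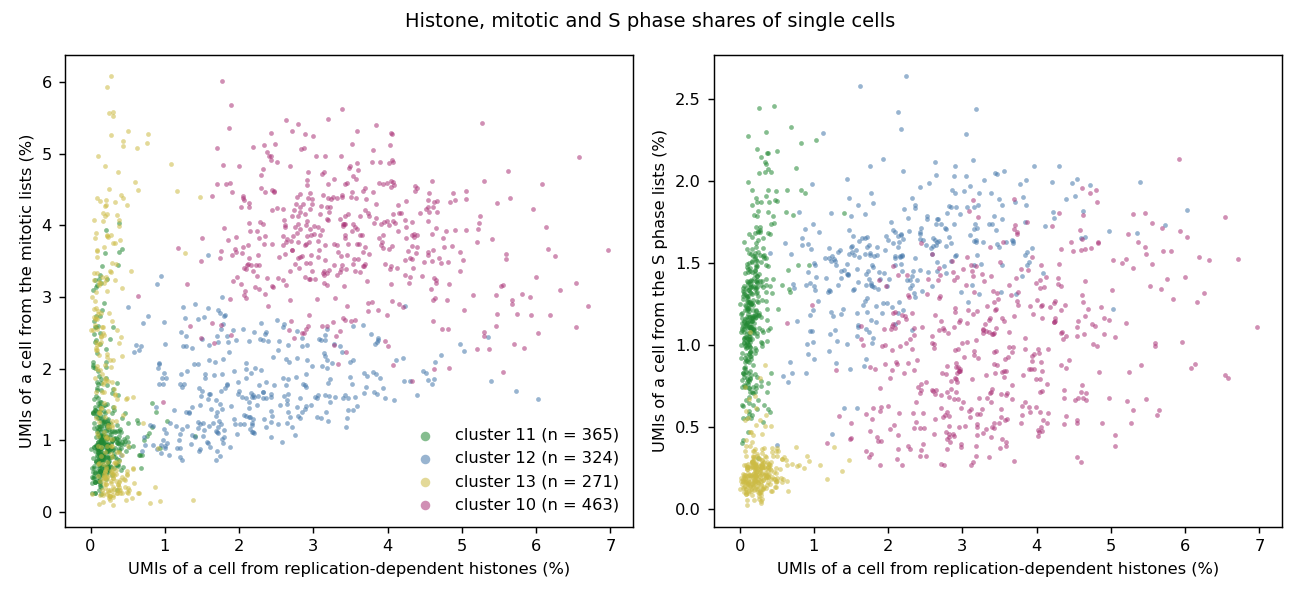
Each point is 1 cell of clusters 10 to 13, with the percent of its UMIs from replication-dependent histones on the horizontal axis and from the mitotic lists (left) or the S phase lists (right) on the vertical axis. Cells of cluster 10 (median 3.40% histone and 3.81% mitotic) fill the upper right of the left panel, above cluster 12 and to the right of clusters 11 and 13.

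The cells of cluster 10 were divided into 4 bins of like size by their histone share, and genes were compared as CPM of all UMIs except those of histones. The bins had histone medians of 2.22, 3.04, 3.77 and 4.83% and median depths of 18747, 15199.5, 12561 and 11482 UMIs. The median share of the mitotic lists over the bins was 3.76, 3.89, 3.99 and 3.60%, with no trend, and that of the S phase lists 0.846, 0.833, 0.952 and 1.21%. Between the highest and the lowest bin, 17 of 36 replication fork genes had exact intervals above 0 and 1 below (median log2 ratio 0.33), and so had 10 and 2 of 21 nucleotide synthesis genes (0.38). Of 32 mitotic regulators, 8 lay above and 14 below (0.07), of 28 kinetochore genes 10 above and 2 below (0.13), and of 28 spindle genes 8 above and 4 below (0.11), so the mitotic lists did not move as a whole. Over all 8501 genes with 20 UMIs or more in these bins, 1251 lay above and 894 below, with a median of 0.03. From the lowest to the highest bin, Slbp went from 306 to 672 CPM, Ccne2, the S phase cyclin E2, from 10.4 to 102, Pcna from 596 to 922 and Rrm2 from 674 to 1182. Top2a went from 3009 to 3894 CPM. Of the mitotic genes, 5 that were chosen after the data were seen had lower levels in the highest bin, Ccnb1 from 414 to 180 CPM, Cdc20 from 555 to 311, Cenpa from 733 to 378 and Tuba1c from 398 to 187, with Cdk1, the mitotic kinase, from 694 to 535. Cd8a changed less, from 1285 to 1519 CPM. The cells of high doublet score fell into the lower bins (16, 6, 1 and 0), and their part and that of depth in these trends were not tested. The bins held 48, 54, 70 and 60 WT cells and 68, 62, 46 and 55 KO cells.

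**Figure D4:**
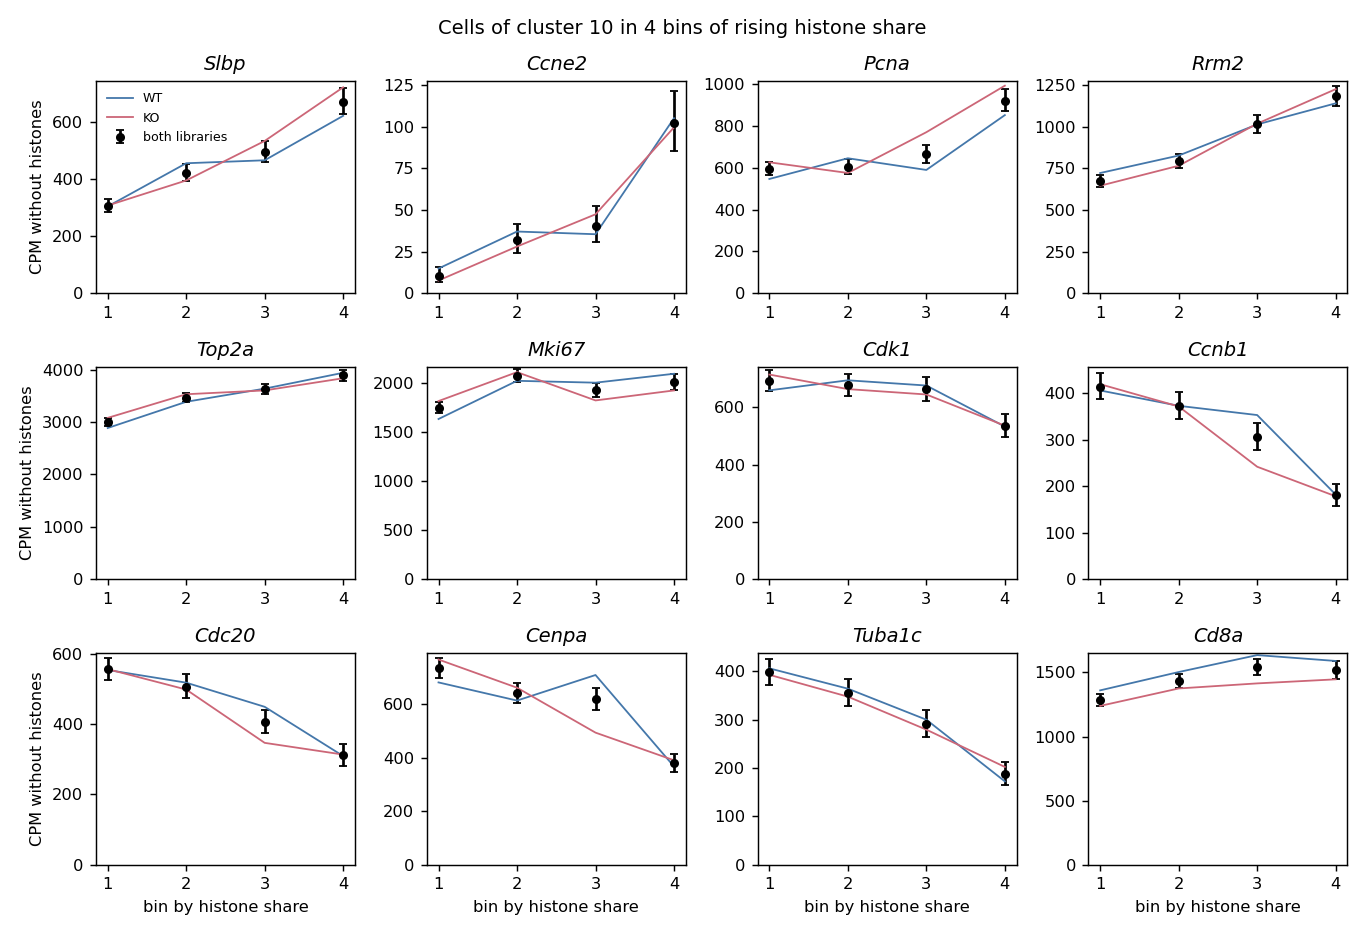
CPM without histone UMIs (vertical axis) of 12 genes in the 4 bins of cluster 10, ordered by histone share (horizontal axis). Black points are both libraries with exact 95% Poisson intervals, and lines are the WT-labelled (blue) and KO-labelled (red) library, with Slbp, Ccne2, Pcna and Rrm2 going up and Ccnb1, Cdc20, Cenpa and Tuba1c going down in both.

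KO was set beside WT in cells that divide around the stage at which the CD4Cre transgene becomes active. Cdc42 itself had 1478 UMIs in 226 of 232 WT cells and 1472 UMIs in 227 of 231 KO cells, which is 464 CPM (441 to 488) and 402 CPM (382 to 424). The log2 ratio of KO over WT was -0.20 (-0.31 to -0.10), against -0.25 in cluster 11, -0.29 in cluster 12, -0.20 in cluster 13 and -0.11 in all cells outside these clusters. Counts of transcript 3′ ends include transcripts that lack the deleted exon 2, so that this value does not measure the deletion.

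Cluster 10 took 3.79% of all WT cells (3.33 to 4.30%) but 3.05% of all KO cells (2.68 to 3.47%), and the KO share was 0.805 times the WT share. The ratio was 0.858 for cluster 11, 1.09 for cluster 12, 0.767 for cluster 13 and 0.868 for the 4 clusters together. Of the markers and leading genes, Top2a and Hmgb2 had log2 ratios near 0, and values in KO were lower for H3c3 (0.786 times the WT level) and H1f5 (0.826 times). By CPM, the leading genes H2ac10, Esco2 and Mxd3 were also lower in KO, to a smaller extent. Without replicate libraries, the share of a genotype cannot be told apart from that of a pool of mice or a preparation. KO cells were also deeper, with a median of 14361 UMIs against 12526 in WT.

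The medians of most cell cycle lists lay close to that of all genes, with Pttg1 and the histone classes H1 and H3 farther from it. Over 9848 genes the median log2 ratio was 0.04, and exact intervals lay above 0 for 7.44% of them and below 0 for 4.48%. Abundant genes have narrow intervals, so that list counts of such intervals also follow the level of the genes. List medians were 0.01 for licensing, -0.06 for the replication fork, -0.03 for nucleotide synthesis, -0.01 for mitotic regulators, -0.05 for both kinetochore and spindle genes, and 0.04 for ribosome making and Myc. Ccnb1, Cdc20, Mki67, Mcm3 and Cdkn2d, given above, all lay within 0.1 log2 of equality. Histone genes had a median of -0.05 over 59 genes, with 17 intervals below and 7 above 0. By class, the log2 ratio was -0.27 for H1 and -0.21 for H3, 0.01 for H2A, -0.08 for H2B and 0.09 for H4. The histone classes kept these signs in cluster 12 (-0.21, -0.19, 0.03, -0.05 and 0.14), were all negative in cluster 11 and were 0.00 to 0.55 in cluster 13. Of the 9 histone variant genes, 6 had intervals below 0. DP genes had a median of -0.10, with 7 intervals below and 3 above 0, and the TCR complex one of -0.01. The actin genes that the study names had a median of 0.13, with 7 of 10 intervals above 0, among them Ezr, which links actin to the membrane (567 and 671 CPM, log2 ratio 0.24), and Rhoa (806 and 896 CPM, 0.15).

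Few genes exceeded a 2-fold difference. Of 6381 genes for which cluster 10 held 100 UMIs or more, 23 (0.36%) were 2-fold higher and 5 (0.0784%) were 2-fold lower in the KO-labelled library. The largest lower value was that of Ctsl, which encodes the lysosomal protease cathepsin L (chromosome 13, 64361890 to 64370772). It had 4441 UMIs in 228 WT cells and 395 UMIs in 156 KO cells, that is 1394 and 108 CPM, and the log2 ratio was -3.69 (-3.84 to -3.54). The ratio was -3.34 in cluster 11, -2.90 in cluster 12, -3.60 in cluster 13 and -2.58 in all other cells, so Ctsl was lower in every group examined. Ctsl was also the gene that carried the thymic epithelium list here (1423 and 139 CPM in all), while Krt5 was at 0 in both libraries. Next were Trbv2, a V segment of the TCR beta chain (-1.45, 84 UMIs in 23 WT cells and 35 UMIs in 10 KO cells), Arl3, a small GTPase (-1.15, 184 and 95 UMIs), Mtfr1, a regulator of mitochondrial fission (-1.13), and Gnb4, a G protein beta subunit (-1.01). Btaf1 (-0.94), Atp9b (-0.88) and Gm12840 (-0.87) completed the lowest 8.

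Among the genes higher in KO, Pttg1 is on the list of mitotic regulators. It encodes securin, which holds back the cleavage of cohesin until anaphase (chromosome 11, 43420244 to 43427463). It had 59 UMIs in 50 WT cells and 579 UMIs in 159 KO cells, 18.5 CPM (14.1 to 23.9) against 158 CPM (146 to 172), and a log2 ratio of 3.08 (2.71 to 3.51). The difference was present in each of the 4 bins of histone share, with 24.8 and 186 CPM in the first and 9.41 and 116 in the fourth. With cells thinned to 5000 UMIs, 9.38% of 224 WT cells and 41.7% of 228 KO cells had a UMI. Without thinning, the shares were 21.6% and 68.8%, against 9.87% and 8.90% of the cells outside clusters 10 to 13. The unthinned shares are at unlike depth, since the median was 13154 UMIs in cluster 10 and 3320 in all cells. They therefore do not show whether cells of cluster 10 held Pttg1 more often than the cells outside. The log2 ratio was 1.96 in cluster 11, 1.01 in cluster 12 and 2.02 in cluster 13, but -0.17 in the cells outside these clusters. No other mitotic regulator was 2-fold apart between the libraries in cluster 10.

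Klf2, a transcription factor that marks mature thymocytes leaving the thymus, had 36 UMIs in 22 WT cells and 231 UMIs in 86 KO cells, with a log2 ratio of 2.47 (1.97 to 3.03). It was 1.04 in cluster 11, 0.48 in cluster 12, 2.15 in cluster 13 and 0.68 elsewhere. The other genes of the single-positive maturation list did not share a single direction of that size. The list median was 0.23 and 3 of 15 intervals lay above 0, against 7.44% of all genes. Ifi27l2a, a gene known to be induced by interferon, had 42 UMIs in 15 WT cells and 249 in 47 KO cells, with a log2 ratio of 2.35 that became 4.83 without the 5% of cells with most UMIs. Epsti1, another such gene, chosen after its values were seen, had 75 and 365 UMIs (2.08). Interferon-inducible genes were not examined as a list, and Gbp8 and Gbp4, also chosen afterwards, had -0.34 and -0.16. For Isg15 (49 and 131 UMIs, 1.21), 51.1% of the UMIs came from 2 cells. Gm45315 had 33 UMIs in 29 WT cells and 1307 UMIs in 228 KO cells (5.09). No gene type was at hand for it, and its reads may belong to another gene. Its ratios were 4.53 to 5.61 in clusters 11 to 13 and 5.01 elsewhere. It was higher to a like extent in all clusters, and so was mt-Nd3, a mitochondrial gene (1.15 in cluster 10 and 1.20 elsewhere).

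Several of the high values rested on few cells, and others, such as that of Vim, did not (257 UMIs in 104 WT cells and 629 in 143 KO cells, log2 ratio 1.09). Vpreb3 (121 UMIs in 2 cells) and Ebf1 (101 UMIs in 3 cells) were not found in WT and came almost wholly from the 2 KO cells with B lineage genes described above. Plac8 (4 and 107 UMIs) had a log2 ratio of 4.38, with 59.5% of its UMIs in 2 cells, and 2.84 without the 3 cells that lack TCR genes. Chchd10 (8 and 95 UMIs) had 3.29, with 70.9% of its UMIs in 2 cells, and 1.16 without the 3 cells. Irf8 (33 and 84 UMIs) had 1.14 and turned to -1.39 without the 3 cells, with 14 UMIs left in KO, and Ebf1 kept 1 UMI. Without these cells, 16 genes were 2-fold higher and 5 lower among 6359. Plac8 is also on the DN list, whose median was 1.12 over 10 measured genes. Of these, 6 had intervals above 0, against 7.44% of all genes. Without the 3 cells, the median of the DN list was 1.09 over 10 genes with 7 intervals above 0. Il2ra of that list (1 and 26 UMIs) was found in 1 WT cell and 5 KO cells. Of the markers of other cells, the summed levels of the B cell, macrophage and dendritic lists were higher in KO, also without the 3 cells. By gene, without the 3 cells, the B cell median was -0.03 over 3 measured genes, with 1 interval above and 1 below 0. The macrophage list had 1 measured gene, whose interval included 0. The dendritic list had 2, with 1 interval above 0. Of 11 B cell markers, 8 were at 0 in WT and 2 in KO, with summed levels of 1401 and 1677 CPM, and 4 were at 0 in KO with 1572 CPM without the 3 cells. The WT level thus came from the few genes of the list not at 0, with a median of 14 UMIs per cell. Of 11 macrophage markers, 8 and 5 were at 0, with 18.8 and 41.8 CPM, and 6 were at 0 in KO with 26.1 CPM without the 3 cells. The dendritic list had 64.7 and 91.6 CPM, and 79.1 CPM in KO without the 3 cells. The summed levels of the thymic epithelium list, which Ctsl carried as given above, and of the gamma-delta list (312 and 269 CPM) were lower in KO. Without the 3 cells, the median of the gamma-delta list was 1.01 over 2 measured genes, with 1 interval above and 1 below 0. The part of these cells in the DN list beyond the 3 left out was not tested.

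**Figure D5:**
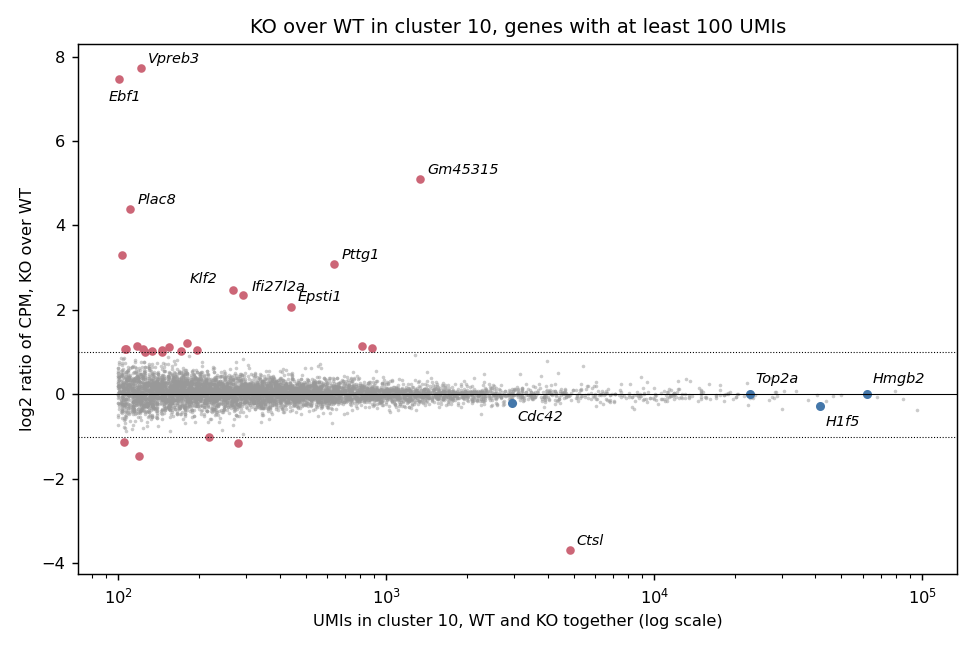
Log2 ratio of CPM, KO over WT (vertical axis), against the UMIs of a gene in cluster 10 (horizontal axis, log scale) for 6381 genes with at least 100 UMIs. Red points are the 28 genes at least 2-fold apart, blue points are Cdc42, Top2a, H1f5 and Hmgb2, and dotted lines mark 2-fold. Vpreb3 and Ebf1 have no UMI in WT, so their height depends on the 0.5 added to each sum.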

How the data were processed

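Droplet libraries of 3′ transcript ends were made from whole thymus, 1 per genotype. The authors counted reads and processed cells with Cell Ranger 3.0.2, STAR and Seurat on mm10, per the submitters' processing notes, kept cells with 200 to 6000 genes and at most 50000 reads, and deposited raw UMI counts of 20282 genes with cluster numbers, without normalization. The WT-labelled library held 29706197 UMIs in 6115 cells and the KO-labelled library 37920214 UMIs in 7568 cells, and the library was read from the cell names, which carry Cdc45 where the labels have Cdc42. The table's numbers of cells and clusters are not those the study describes. The build of the sequences is named beside them.

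For each cluster and library the UMIs of a gene were added up and divided by all UMIs of these cells, and log2 ratios were taken after adding 0.5 to each sum. List genes needed 20 UMIs in the clusters compared (medians are over these) and named or 2-fold genes 100 UMIs. Exact 95% intervals are Poisson for sums, conditional binomial for ratios and Clopper-Pearson for shares. With 1 library per condition no test was made. The genes named are the 3 markers, the genes of the lists, the 10 leading genes, the 8 highest and the 8 lowest ratios of each comparison and Cdc42. The cluster, the lists and the comparisons were chosen with earlier results of these data known. The histone bins and the genes shown in them were chosen after the data were seen. The computation was tested on simulated data. The automatic threshold of scrublet (scanpy 1.11.5) marked 2 WT and 0 KO cells and so did not work, and the 6% of cells with the highest score (367 WT and 455 KO) were left out as an alternative.

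Alternatives were TMM factors (edgeR 4.0.16), size factors (DESeq2 1.42.0), totals without ribosomal protein and mitochondrial genes, the mean of per-cell levels scaled to 10000 UMIs, thinning to 1000 UMIs, cells of high UMI number, doublet score or mitochondrial percent left out, 1 added to sums, other minimum UMI numbers, each library alone, other resolutions and other denominators. R 4.3.3, Python 3.11.15, numpy 2.4.6 and scipy 1.17.1 were used.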

Additional observations from a re-analysis of the deposited data

Results flagged for a closer look

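In 5 genes that were 2-fold apart between the libraries in cluster 10, the log2 ratio of KO over WT had the opposite sign in the cells outside clusters 10 to 13, with exact intervals on opposite sides of 0. Pttg1 was 3.08 in cluster 10 and -0.17 outside, Ifi27l2a 2.35 and -1.16, Isg15 1.21 and -0.97, Vim, an intermediate filament gene, 1.09 and -0.12, and Trbv2 -1.45 and 0.19. Chchd10 (3.29 and -0.11), Plac8 (4.38 and -0.01) and Ttll5 (1.06 and -0.11) also had opposite signs, but their intervals outside included 0. The difference between the 2 groups of cells was not tested, since each condition has 1 library. The cells outside also pool clusters of unlike cell types, whose shares differ between the libraries. Cluster 6, for example, held 479 of 6115 WT cells and 316 of 7568 KO cells. The part of these shares in the ratios outside was not tested. Isg15 and Trbv2 rested on few cells of cluster 10 (27 and 30, and 23 and 10, in WT and KO). Groups of 1 library allow no search for outlying samples.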

How the results depend on the processing

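The share of cluster 10 and Cdc42 stayed within their exact intervals under every alternative run for them. The median of all genes stayed within a fixed margin around its value. The phase shares stayed within the quartiles over cells, a wide range, and thinning was the only alternative run for them. The resolutions 1.8 and 2 hold the same 463 cells, so these alternatives could not differ, though they are counted below. Of the list levels of cluster 10 over clusters 11 to 13, 144 of 150 alternative values stayed within the interval of the median over the list genes. The median of the histones, 1.76, was 1.61 with totals without ribosomal protein and mitochondrial genes, 1.97 as a mean over cells, and 2.11 both without the 5% of cells with most UMIs and with thinned cells. That of the DP genes, 0.46, was 0.12 as a mean over cells and -0.12 without the 5% of cells with most UMIs, so its direction against the 3 clusters together is not firm. Of the KO over WT list medians, 134 of 140 alternative values stayed within such an interval. The replication fork moved to -0.092 with TMM factors, -0.10 with DESeq2 size factors and 0.017 with thinned cells, nucleotide synthesis to -0.19 with thinned cells, the kinetochore to -0.092 with DESeq2 size factors, and ribosome making to -0.11 without the 5% of cells with most UMIs. The number of genes past 2-fold, 28 of 6381, became 15 of 4268 without the 5% of cells with most UMIs, 86 of 8000 from 50 UMIs, 10 of 4496 from 200 UMIs and 1 of 791 with thinned cells, where fewer genes were measured. It was 10 where the exact interval had to lie beyond 2-fold, an alternative chosen after seeing the data. Vpreb3 turned to -0.18 without the 3 KO cells that lack TCR genes, also chosen after seeing the data, and it then had no UMI in either library. Irf8 (1.14) turned to -1.39 without these cells and was 2.28 without the 5% of cells with most UMIs. Ifi27l2a (2.35) was 2.97 as a mean over cells and 4.83 without the 5% of cells with most UMIs, Epsti1 (2.08) was 1.35 and Gm45315 (5.09) 6.01 with thinned cells. The causes were not tested beyond what each alternative leaves out. No paired analysis was possible because each condition has 1 library. Pooling of 5 mice and 1 library per condition limit every comparison of genotypes, and low counts limit genes such as Ung and Srm.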
